A study of Mus musculus with 37 samples.

Results

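Actin filaments and the cell contacts they are anchored to give an intestinal epithelial cell its shape, its brush border and its hold on its neighbours. The genes described here are 40 components of this system, chosen by symbol for their role: the cytoplasmic actins Actb and Actg1, the adherens junction proteins Cdh1, Ctnna1, Ctnnd1, Jup and Vcl, the filament crosslinkers and their partners Actn1, Actn4, Flna, Rflnb and Tagln2, the myosin II chains Myh9, Myh14, Myl9, Myl6, Myl12a and Myl12b, with the class I myosin Myo1e, the tropomyosins Tpm1, Tpm2, Tpm3 and Tpm4, the capping and turnover proteins Capg, Cfl1, Pfn1, Tmsb4x and Tmsb10, the Arp2/3 subunits Arpc1b, Arpc2, Arpc3 and Arpc5, Ezr, Msn and Vil1, and the small GTPases Rhoa, Rhoc, Rac1 and Cdc42 with the Cdc42 effector Cdc42ep1. Earlier results of these data were known when the genes were chosen. A gene was kept in an experiment if its unique molecular identifiers (UMIs, tags that count each captured RNA molecule once) summed to at least 20 over that experiment. This left 39 of the 40 among 27407 genes in whole organoids, 37 among 20500 genes in sorted cells at 72 h and 38 among 27547 genes in the irradiation experiment. Msn, which codes for moesin, was the only gene below the limit everywhere, with 1 UMI in all whole organoids and 0 in the sorted cells at 72 h.

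RNA was measured in mouse jejunal organoids with or without vasoactive intestinal peptide (VIP), a neuropeptide of the enteric nervous system. Whole organoids of C57Bl6/J mice were left untreated (3 cultures, 5 libraries) or were given 100 nM VIP for 72 h (4 cultures, 8 libraries). Cells positive for Lgr5-EGFP, a reporter of intestinal stem and progenitor cells, were sorted from organoids of Lgr5-EGFP-IRES-CreERT2 mice after 72 h with 100 nM VIP or without it (4 cultures each). The last experiment used sorted Lgr5-EGFP+ cells again, from organoids that had received 6 Gy of X-rays or no irradiation and then 100 nM VIP or none for 48 h (4 cultures in each of 4 groups). The donor mice were 6 to 12 weeks old, and a culture is an organoid line of 1 mouse, so the mouse number pairs the cultures within an experiment but not between experiments. The VIP culture of mouse 4 in whole organoids has no untreated partner and adds nothing to the fold changes there. Organoids hold epithelium without nerves, muscle or blood vessels. The reporter sits in the Lgr5 locus, so a sorted gate keeps cells that carry EGFP protein and says nothing on how much Lgr5 RNA they still hold. Cultures had 3722716 to 6330404 UMIs in whole organoids, 575242 to 1104126 in sorted cells at 72 h and 1075715 to 1876729 in the irradiation experiment. Values are given as CPM, the UMIs of a gene per 1000000 UMIs of a culture.

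Epcam, a marker of all epithelial cells, stood at 1274.56 to 1411.46 CPM in whole organoids, and the collagen gene Col1a1 at 0 in every whole organoid culture. The stem cell marker Olfm4 lay between 3369 and 4904 CPM in the untreated sorted cells at 72 h, near or above its 1351 to 3495 CPM in untreated whole organoids. Lgr5 RNA itself was not higher in these sorted cells, at 13.2 to 50.6 CPM against 42.4 to 102 CPM in the whole organoids. The sorted cells also held RNA of other epithelial types. The 6 Paneth cell markers summed to 4833 to 13986 CPM in these untreated cultures.

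Globular actin is polymerized into filaments, and profilin (Pfn1) and the thymosins (Tmsb4x, Tmsb10) bind the free monomers, while the Arp2/3 complex starts branches and cofilin (Cfl1) severs old filaments. Tropomyosins lie along a filament and decide which motors reach it, myosin II pulls on it, and filamin and alpha-actinin tie filaments together. E-cadherin (Cdh1) joins neighbouring cells and is coupled to the filaments through catenins and vinculin, whereas ezrin and villin build the microvilli that face the lumen. Small GTPases switch these activities on and off.

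One library stood apart from its group in values of the members themselves. The library labelled technical replicate 2 of VIP-treated mouse 3 held 26.2 CPM of Capg, whereas technical replicate 1 of the same culture held 184 CPM. The other VIP libraries held 89 to 202 CPM of Capg and the untreated ones 20.7 to 29 CPM. The members' summed share of all UMIs was 1.35% in that library, as in the untreated libraries (1.30% to 1.44%), against 1.86% in its partner and 1.62% to 1.80% in the other VIP libraries. Both libraries were summed into 1 culture, as the labels give them, and the counts without either are stated with the result. Since the library was singled out on the members' own values, the counts without it are no separate check of the VIP result.

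In whole organoids VIP raised 12 of the 39 members that could be tested (30.8%), against 4.82% of all 12727 genes tested (474 higher and 140 lower), and lowered none (edgeR quasi-likelihood test with the mouse as a block, Benjamini-Hochberg adjusted p of 0.05 or less, a rule used for every call in this text). The direction was shared more widely than the calls. The log2 fold change was above 0 for 37 of 39 members (94.9%), against 49.3% of all genes, with a median of 0.25 against -0.0041. Of the members, 29 were higher with VIP in each of the 3 mice that had both cultures (19.5% of all genes were), and for 18 every VIP culture lay above every untreated one (6.32% of all genes). Members are more abundant than the typical gene tested (median 206 CPM against 24.5 CPM), and abundant genes pass such a test more easily. The members were also chosen with earlier results of these data known, so that these shares describe them and test nothing. In these bulk samples, fewer or more cells of a type and less or more RNA per cell cannot be told apart. All 12 were higher in 3 of 3 mice. Tpm2 and Myl9 reached the limit on low counts (1.76 CPM in 3 cultures) in the VIP group alone, and without genes that reached the limit in their higher group alone 10 of 37 members were called (27%), against 4.51% of 12013 genes. None of the 12 passed when technical replicate 1 of VIP-treated mouse 3 was left out, when 0 of all genes passed, and 24 members passed, these 12 among them, when technical replicate 2 was left out in its place. Without mouse 3 altogether 25 members passed, again with these 12 among them, without mouse 1 it was 7 and without mouse 2 it was 5. DESeq2 called 7 members and a fit without the mouse block 2. Apart from the setting with 0 calls, these counts are given without the calls among all genes. They therefore say nothing on the members in particular.

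**Figure D1:**
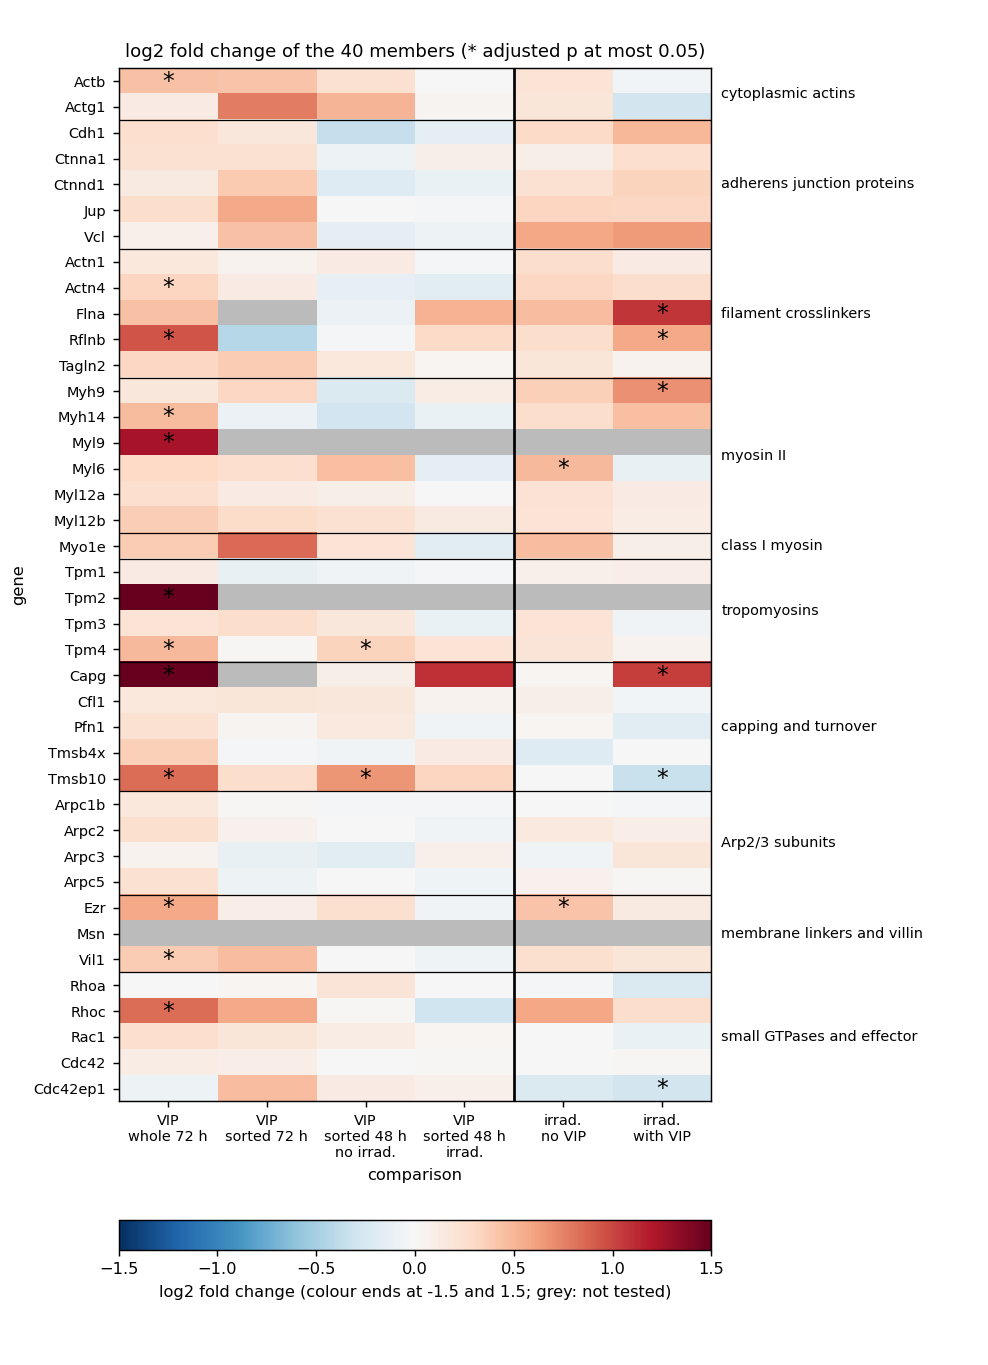
Log2 fold change (colour) of the 40 members (rows, ordered by role) in 6 comparisons (columns), with an asterisk where the adjusted p was 0.05 or less and an empty field where a gene could not be tested. The column for VIP in whole organoids is nearly all above 0 and carries 12 asterisks, that for VIP in sorted cells at 72 h carries 0, and irradiation of VIP-treated cells carries 6.

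Of the genes for capping and monomer-binding proteins 2 of 5 rose. Capg (GRCm38 chromosome 6, 72544391 to 72562983), which caps the fast-growing end of a filament, was at 28.6, 23.3 and 20.7 CPM in the untreated cultures of mice 1 to 3 and at 130, 191, 123 and 92.4 CPM in the VIP cultures of mice 1 to 4. Every VIP culture was far above every untreated one, a 6.01-fold rise (log2 fold change 2.59, SE 0.15, adjusted p = 1.8e-07). Tmsb10 (chromosome 6, 72957347 to 72958748), a thymosin that sequesters monomers, went from 416, 347 and 241 CPM to 659, 683, 445 and 585 CPM. The groups did not overlap (log2 fold change 0.84, SE 0.09, adjusted p = 8.24e-05). Of the other 3 genes of this role, Tmsb4x had a log2 fold change of 0.35 (adjusted p = 0.0594), Pfn1 of 0.23 and Cfl1 of 0.15, and none of these passed. Thymosin genes have processed copies in the genome, so that reads of Tmsb10 and Tmsb4x can be lost or shared between copies.

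Among the tropomyosins Tpm2 and Tpm4 rose and Tpm1 and Tpm3 did not pass. Tpm2 (chromosome 4, 43514711 to 43523765), best known from smooth and skeletal muscle, was near the floor in untreated organoids, at 0.866, 1.43 and 0.806 CPM, and stood at 7.94, 12.6, 5.53 and 6.03 CPM with VIP. All VIP cultures were above all untreated ones (log2 fold change 3.07, SE 0.32, adjusted p = 5.57e-05), on 3 to 7 UMIs in each untreated culture and 33 to 79 in each VIP culture. No untreated culture reached the limit on low counts, so that Tpm2 could be tested only because it was higher with VIP. Tpm4 (chromosome 8, 72134975 to 72153142), a non-muscle form, went from 171, 145 and 183 CPM to 241, 223, 238 and 250 CPM, again without overlap (log2 fold change 0.49, SE 0.09, adjusted p = 0.00728). Tpm1 was at 475 to 509 CPM without and 501 to 562 CPM with VIP (log2 fold change 0.12, adjusted p = 0.537).

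Actb (chromosome 5, 142903115 to 142906754), which codes for beta-actin, rose from 3559, 3458 and 3424 CPM to 4972, 5017, 4295 and 4421 CPM. The lowest VIP culture was above the highest untreated one, a 1.36-fold difference (log2 0.44, SE 0.09, adjusted p = 0.0089). Actg1, the gamma form, was counted at only 10.1 to 16.2 CPM in the 7 cultures and had a log2 fold change of 0.12 (adjusted p = 0.823). Actg1 has many near-identical processed copies, so its counts are uncertain.

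Of the myosin II chains Myl9 and Myh14 rose. Myl9, a regulatory light chain shared with smooth muscle, was at 6.41, 3.88 and 1.07 CPM without VIP and at 12.7, 9.26, 4.58 and 7.49 CPM with it. These ranges overlapped, since the untreated culture of mouse 1 was above the VIP culture of mouse 3, but each mouse rose (log2 fold change 1.24, SE 0.25, adjusted p = 0.0104). One of its untreated cultures, that of mouse 3, was under the limit on low counts. Myh14, the non-muscle heavy chain IIC, was at 93.4, 135 and 49.96 CPM without and at 118, 188, 78.2 and 106 CPM with VIP, with overlap between mice, the untreated culture of mouse 2 being above all VIP cultures but its own, and a rise within each (log2 fold change 0.47, SE 0.10, adjusted p = 0.0105). Myh9, the heavy chain IIA, was at 131 to 243 CPM without and 175 to 257 CPM with VIP and did not pass (log2 fold change 0.17, adjusted p = 0.396). The light chains Myl6, Myl12a and Myl12b had log2 fold changes of 0.30, 0.25 and 0.36, with adjusted p from 0.0676 to 0.161. Myl12a and Myl12b are near-identical neighbours in the same direction on chromosome 17, so that reads can be split between them.

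Of the crosslinkers and their partners 2 of 5 rose. Rflnb (chromosome 11, 76019194 to 76027782), whose product refilin B binds filamin and promotes filament bundles, went from 97.7, 88.6 and 63.1 CPM to 163, 197, 121 and 131 CPM. No VIP culture fell within the untreated range (log2 fold change 0.94, SE 0.10, adjusted p = 0.000109). Actn4, an alpha-actinin, went from 327, 353 and 344 CPM to 419, 455, 415 and 395 CPM (log2 fold change 0.33, SE 0.09, adjusted p = 0.0488), also without overlap. Flna, the filamin that refilin binds, had a log2 fold change of 0.44 (adjusted p = 0.298), and Tagln2 one of 0.31 (adjusted p = 0.0627).

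Of Ezr, Msn and Vil1, both genes that could be tested rose. Ezr (chromosome 17, 6738041 to 6782784), which ties filaments to the membrane of microvilli, went from 215, 238 and 199 CPM to 324, 354, 290 and 304 CPM. The groups stood well apart (log2 fold change 0.57, SE 0.09, adjusted p = 0.00157). Vil1, which bundles the core filaments of microvilli, went from 229, 246 and 206 CPM to 283, 370, 247 and 305 CPM, where the lowest VIP value was barely above the highest untreated one (log2 fold change 0.38, SE 0.10, adjusted p = 0.0421). Of the small GTPases and the effector only Rhoc passed. It was at 53.0, 73.1 and 81.1 CPM without and 97.3, 196, 91.9 and 86.4 CPM with VIP, so that the VIP culture of mouse 2 was far above the rest (log2 fold change 0.84, SE 0.18, adjusted p = 0.0149). Without that mouse the log2 fold change was 0.51 (adjusted p = 0.0852). Rhoa and Cdc42ep1 were the only members with a fold change below 0, at -0.01 and -0.08 on the log2 scale.

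The adherens junction genes and the Arp2/3 subunits had no call, 0 of 5 and 0 of 4, with 3 and 2 of them at an unadjusted p under 0.05. E-cadherin itself, Cdh1, was at 103 to 258 CPM without and 147 to 263 CPM with VIP (log2 fold change 0.25, adjusted p = 0.207). Jup, the plakoglobin of adherens junctions and desmosomes, had a log2 fold change of 0.26 (adjusted p = 0.15), Ctnna1 one of 0.23, Ctnnd1 one of 0.13 and Vcl one of 0.08. The 4 Arp2/3 subunits had log2 fold changes between 0.05 (Arpc3) and 0.24 (Arpc2).

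**Figure D2:**
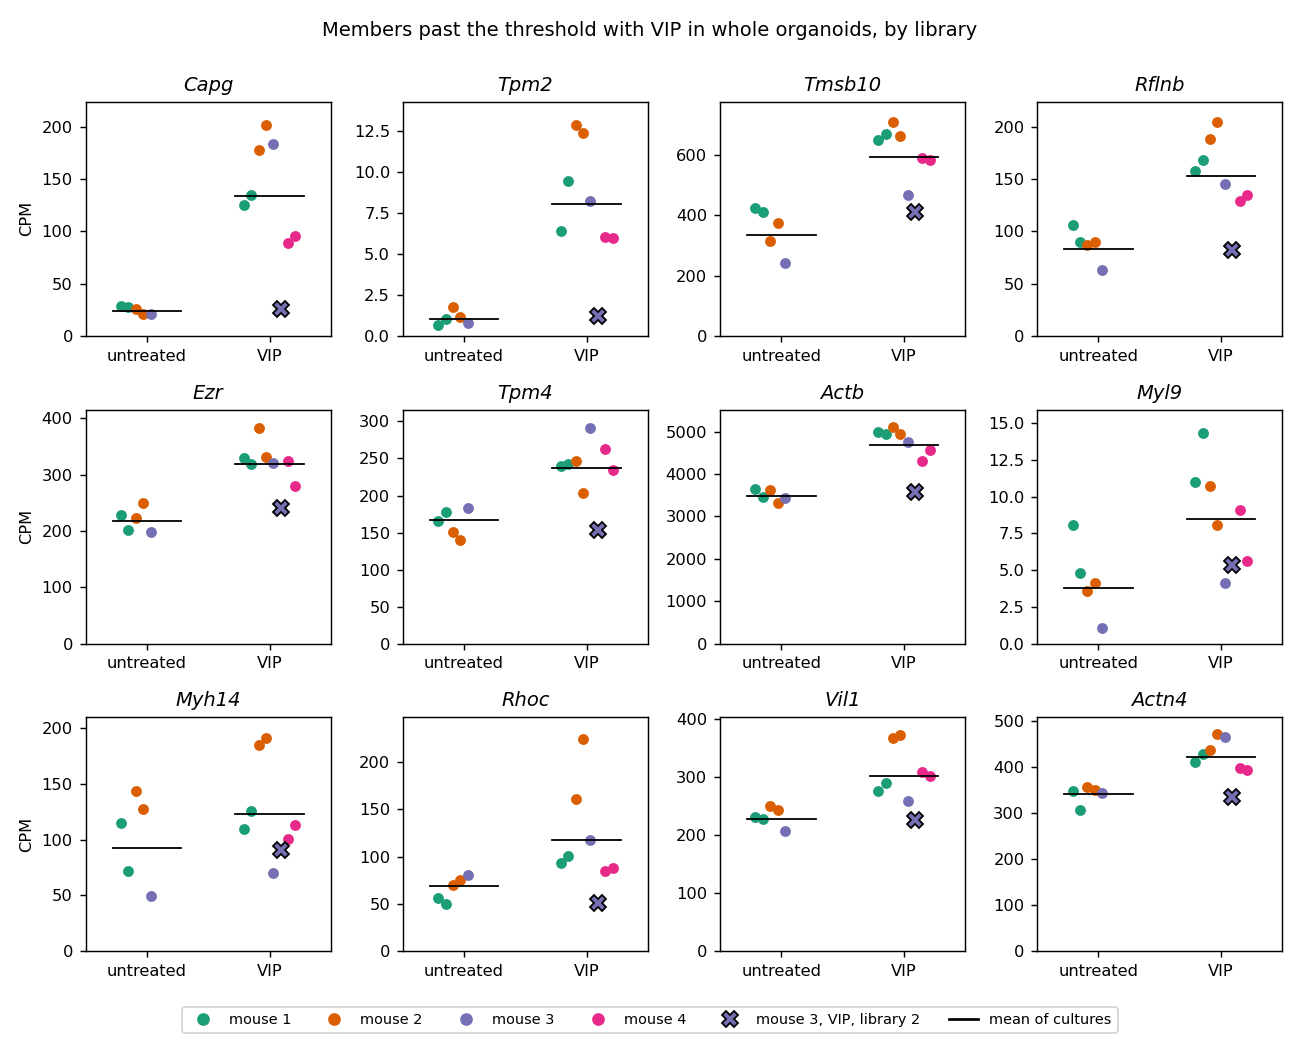
CPM of the 12 called members in each technical library of whole organoids, untreated and VIP-treated, with 1 colour per mouse and a cross for technical replicate 2 of VIP-treated mouse 3. In the Capg panel the cross stands at 26.2 CPM, among the untreated libraries, and all other VIP libraries are at 89 CPM or more.

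Some cell type markers moved beside these genes, while 0 of 6 Paneth cell, 0 of 5 stem cell, 0 of 4 tuft cell and 0 of 4 enteroendocrine markers were called. The 6 goblet cell markers summed to 7333 to 8953 CPM with VIP and 5339 to 6624 CPM without, with 5 of 6 called higher. The 6 general epithelial markers, of which Cdh1 is 1, summed to 7719 to 8545 CPM against 6046 to 6940 CPM, with 3 of 6 called higher. Of the 6 enterocyte markers 1 was called higher and 2 lower, and their sum was 11371 to 14360 CPM with VIP and 12962 to 16275 CPM without. Their part in the rise of the actin genes was not tested. Markers of mesenchyme were low in both groups and did not rise, at 9.48 to 10.9 CPM with VIP and 12.1 to 13.5 CPM without over 9 genes, most of it Vim, and the 5 leukocyte markers summed to at most 1.41 CPM in any culture, the 3 endothelial ones to at most 0.353 CPM.

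A wider list of 152 other actin and junction genes, also chosen with earlier results known, was read from the same fit. In whole organoids 127 of them could be tested, 16 passed (12.6%, all genes 4.82%), all of them higher, and 102 had a fold change above 0 (80.3%, all genes 49.3%). Of the capping and severing proteins, Gsn (gelsolin, log2 fold change 1.26, adjusted p = 2.09e-05), Dstn (destrin, 0.55) and Vill (the villin-like protein, 2.02) passed, 3 of 20 tested. Among other small GTPases and their effectors and regulators 4 of 25 passed, led by Rhof (1.54) and Rhod (1.52), both of which drive filopodia, and Cdc42ep2 (0.79). The crosslinker list gave 4 of 14, among them Cnn2 (calponin 2, 1.05) and Palld (palladin, 0.63). Of desmosome and adherens junction genes 3 of 25 passed, the plakin genes Ppl (0.89) and Evpl (1.03) and the adhesion receptor Nectin2 (0.37). Myo1c (0.81), an unconventional myosin, and Slc9a3r1 (0.65), the scaffold that holds ezrin to membrane proteins, were the single calls of their lists. The formins and nucleation promoting factors gave 0 of 17 and the remaining Arp2/3 subunits 0 of 5, with 2 at an unadjusted p under 0.05 in each list. SRF and its actin-sensing cofactors gave 0 of 3, and none of these had an unadjusted p under 0.05.

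Serum response factor (SRF) reads the pool of free actin through its MRTF cofactors and binds the CArG box, a short motif in front of many actin and muscle genes. The 250 bases before the RefSeq start (GRCm38.p6) could be read for 36 of the 40 members, and for none of Actb, Cdh1, Rac1 and Ctnna1. On either strand 6 of 36 (16.7%) held a CArG box, against 439 of 27025 genes (1.62%). The choice of the genes did not read these sequences. It did take genes by their actin role, and the box is known from such genes, so that these shares test nothing. Each is given with 10 bases on both sides, 5′ to 3′ on the strand of the gene, with the box in capitals.
Actg1, chr11:120348566-120348595, minus strand: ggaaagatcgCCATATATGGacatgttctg
Vcl, chr14:20929161-20929190, plus strand: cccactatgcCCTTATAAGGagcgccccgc
Myl9, chr2:156775293-156775322, plus strand: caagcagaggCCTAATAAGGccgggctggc
Myl6, chr10:128493040-128493069, minus strand: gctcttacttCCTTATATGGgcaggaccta
Myo1e, chr9:70207308-70207337, plus strand: gctgaattctCCATTTATGGacagattgcc
Vil1, chr1:74409301-74409330, plus strand: ccctatcttcCCTTATATGGtgaaggaagt
The window of Myl6 overlaps an exon of an annotated transcript of that gene, and the other 5 lie upstream of their genes, between 32 (Myo1e) and 227 bases (Vcl) from the start. In whole organoids 2 of the 6 genes with a box were called higher with VIP (Myl9 and Vil1; median log2 fold change 0.34), and of the genes without one 9 of 29 were (median 0.25). The cAMP response element TGACGTCA was found before 1 of 36 members, Myl6 (2.78%, all genes 1.77%), and the AP-1 motif (TGACTCA or TGAGTCA) before 2, Myl12a and Ezr (5.56%, all genes 5.16%). A match describes letters in this window and is no measured binding site.

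In sorted Lgr5-EGFP+ cells at 72 h, VIP changed none of 35 members by the same rule, against 0.0885% of all genes (6 of 6778), and DESeq2 likewise gave 0 members. The share of members with a fold change above 0 was 82.9% (29 of 35, all genes 49.7%). Actg1, Myo1e and Vcl reached the limit on low counts (16.2 CPM in 4 cultures) in the VIP group alone. Without genes that reached the limit in their higher group alone it was 26 of 32. The sorted cultures at 72 h held 575242 to 1104126 UMIs, fewer than any whole organoid culture, and the lowest adjusted p of a member was 0.624.

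Actb, with the smallest p of these 35, was at 1583, 2150, 1396 and 2060 CPM in the untreated cells of mice 1 to 4 and at 1979, 2486, 2649 and 2739 CPM in their VIP-treated partners. It was higher in 4 of 4 mice, but the groups overlapped (log2 fold change 0.43, SE 0.14, adjusted p = 0.624). Tagln2, or transgelin 2, which stabilizes filaments, was at 273, 320, 284 and 337 CPM without and 346, 337, 463 and 496 CPM with VIP, just clear of overlap between mice 4 and 2 (log2 fold change 0.38, adjusted p = 0.83). Jup was at 59.1, 87.9, 37.8 and 44.5 CPM without and 95.1, 71.3, 85.1 and 91.9 CPM with VIP and fell in mouse 2 (log2 fold change 0.57, adjusted p = 0.868). All 5 junction genes had a fold change above 0, from 0.17 (Cdh1) to 0.57. Of these, Vcl could be tested only through the VIP group.

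Of the genes that led in whole organoids, some were too sparse to test here. Capg was counted 38 times in all 8 cultures and could not be tested, with 0, 4.63, 0 and 7.95 CPM in the untreated and 12.7, 12.2, 5.11 and 7.92 CPM in the VIP cultures. Tpm2 and Myl9 had 5 and 19 UMIs and fell below the limit. Rflnb was at 45.6, 68.2, 36.2 and 57.2 CPM without VIP and at 39.9, 36.5, 40.9 and 38.0 CPM with it, lower in 3 of 4 mice. The difference between the VIP effects in sorted cells and in whole organoids was tested as an interaction across both experiments, which differ in mouse strain and depth as well as in the cells, so that these cannot be told apart. Of 38 members, 1 was called, Rflnb, against 0.147% of all genes (15 of 10186). Its interaction, the log2 fold change in sorted cells minus that in whole organoids, was -1.37 (SE 0.24, adjusted p = 0.0144). Mouse numbers are not shared between the experiments, and leaving out a number removed the mouse of that number from each. The call was lost without number 1, 2 or 4 (adjusted p of 0.0598, 0.337 and 0.162), without technical replicate 1 of VIP-treated mouse 3 (0.678) and without the mouse block (0.449), while the value stayed between -1.09 and -1.57. Tmsb10 (interaction -0.57, adjusted p = 0.452) and Ezr (-0.47, adjusted p = 0.682) followed and did not pass. Tmsb10 was at 840, 1249, 940 and 1161 CPM in the untreated and 1132, 1565, 984 and 1511 CPM in the VIP-treated sorted cells, Ezr at 143, 112, 78.9 and 84.3 CPM and at 120, 103, 104 and 128 CPM.

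**Figure D3:**
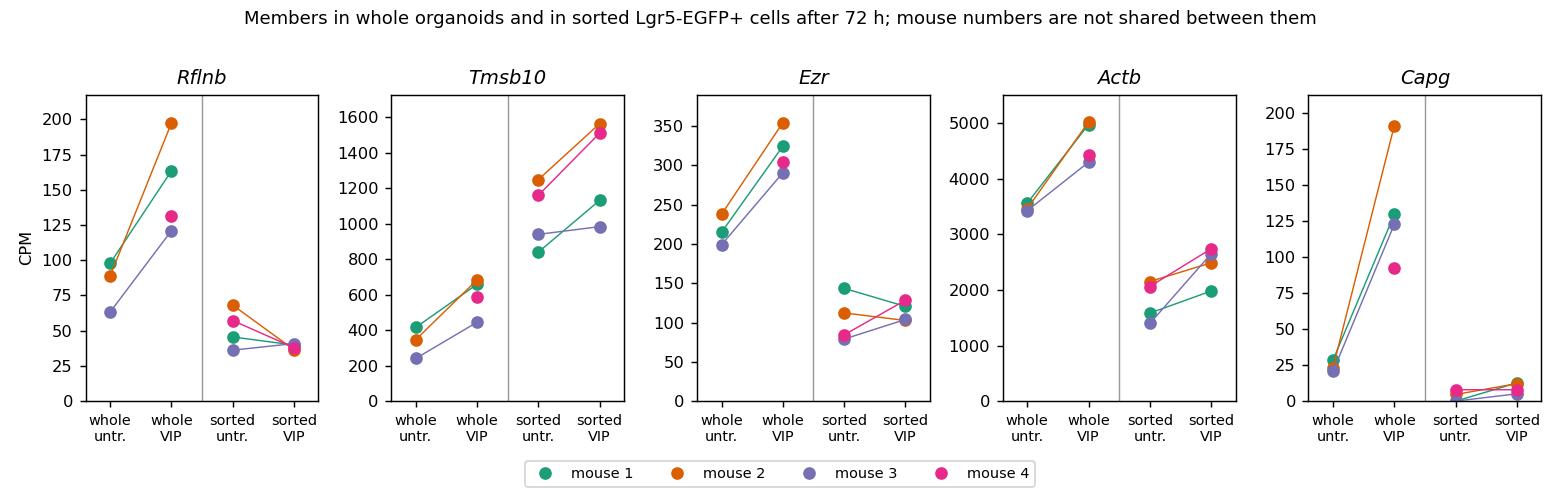
CPM of 5 members in whole organoids (left of the grey line) and sorted Lgr5-EGFP+ cells at 72 h (right), untreated and with VIP, where lines join the cultures of 1 mouse and mouse numbers are not shared between the experiments. Rflnb rises in all 3 whole organoid pairs and is lower with VIP in 3 of 4 sorted pairs, and Actb is higher with VIP in every pair.

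Beside these values, the 5 stem cell markers summed to 5088 to 6538 CPM with VIP and 3906 to 5484 CPM without, 0 of 5 called, and the goblet cell markers to 2956 to 5643 CPM against 3687 to 7293 CPM, with 1 of 5 tested called lower. Their part in the values of the actin genes was not tested. Of the wider list 85 of the 152 genes could be tested and 0 passed, 4 with an unadjusted p under 0.05.

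At 48 h, in sorted cells that were not irradiated, VIP raised 2 of 37 members, Tmsb10 and Tpm4, and lowered none, against 0.742% of all genes (74 of 9976). Members were spread over both directions, with 19 above and 18 below 0. Tmsb10 was at 367, 323, 281 and 326 CPM without VIP and at 684, 500, 439 and 456 CPM with it. The groups did not overlap and all 4 mice rose (log2 fold change 0.67, SE 0.10, adjusted p = 0.000411). Tpm4 went from 199, 205, 182 and 191 CPM to 258, 257, 223 and 250 CPM, again higher in 4 of 4 mice without overlap (log2 fold change 0.34, SE 0.08, adjusted p = 0.0322). Its call was lost when any single mouse was left out, with adjusted p from 0.0837 to 0.186.

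Myl6, the essential light chain of myosin II, and Actb came next. Myl6 was at 71.0, 67.8, 84.0 and 96.4 CPM without and 112, 102, 121 and 101 CPM with VIP (log2 fold change 0.45, adjusted p = 0.0547), and Actb at 2335, 2376, 2081 and 2379 CPM and at 2571, 2976, 2490 and 2803 CPM (log2 fold change 0.23, adjusted p = 0.0605). Both were higher in 4 of 4 mice without overlap and neither passed. Actg1 had a log2 fold change of 0.51 (adjusted p = 0.13). The junction genes lay on the other side, with all 5 at or below 0 and Cdh1 lowest at -0.34 (adjusted p = 0.441). Of the 4 Arp2/3 subunits only Arpc3 was lower in 4 of 4 mice (log2 fold change -0.16, adjusted p = 0.281). Arpc2 was higher in mice 1, 2 and 3 and lower in mouse 4. Arpc1b and Arpc5 were higher in mouse 1 and lower in the other mice. Of the wider list 0 of 113 passed, 9 with an unadjusted p under 0.05. Beside these values, 1 of 5 stem cell markers was called higher with VIP and 1 of 6 enterocyte markers lower. The other marker lists had no call, and the part of the markers was not tested.

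The sorted cells of the 72 h and 48 h experiments came from different mice with different controls, so that VIP values of the same gene can be set beside each other. Of 35 members tested in both, 18 were above 0 in both, 6 below 0 in both and 11 of opposite sign. Actb, Actg1, Tagln2, Tpm3, Cfl1 and Rac1 were higher with VIP in every mouse of both experiments, 6 of 35 (17.1%), while 1.2% of all genes were (81 of 6731), and 0 members were lower in every mouse. Actg1 reached the limit on low counts at 72 h in the VIP group alone, and so could be tested there only because it was higher. Members were more abundant than the typical gene tested, with medians of 198 against 47.8 CPM at 72 h and 143 against 29.3 CPM at 48 h. They were also chosen with earlier results known, so that the 17.1% tests nothing.

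In irradiated cells VIP changed 0 of 37 members, against 0.221% of all genes (22 of 9976). DESeq2 likewise called 0. Capg had the smallest p. It was at 9.41, 9.97, 7.44 and 8.91 CPM in irradiated cells without VIP and at 16.5, 15.98, 36.5 and 12.9 CPM with it, without overlap and with mouse 3 far above the others (log2 fold change 1.10, SE 0.30, adjusted p = 0.184). Without mouse 3 the log2 fold change was 0.65 (adjusted p = 0.999). Tmsb10 was at 299, 321, 326 and 352 CPM without and 443, 370, 391 and 445 CPM with VIP (log2 fold change 0.32, adjusted p = 0.338). Tpm4 was at 218, 212, 236 and 218 CPM and at 237, 250, 267 and 275 CPM (log2 fold change 0.20, adjusted p = 0.631). All 3 were higher in 4 of 4 mice and none passed. Actb did not separate the groups, at 2434 to 2750 CPM without and 2584 to 2810 CPM with VIP (log2 fold change -0.01). Of the 113 other actin and junction genes 0 passed, 5 with an unadjusted p under 0.05. With VIP in irradiated cells, 1 of 5 stem cell markers was called higher, and 1 of 6 goblet cell and 1 of 6 enterocyte markers lower. The part of the markers was not tested.

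Irradiation of untreated cells raised 2 of 37 members (5.41%), Myl6 and Ezr, a share near the 4.46% of all genes (445 of 9976). The comparison shares its untreated, non-irradiated cultures with that of VIP without irradiation. The log2 fold change was above 0 for 30 of 37 members (81.1%), against 49.3% of all genes, with a median of 0.20 against -0.0041. Myl6 went from 71.0, 67.8, 84.0 and 96.4 CPM to 105, 114, 102 and 119 CPM after 6 Gy, clear of overlap and higher in 4 of 4 mice (log2 fold change 0.49, SE 0.11, adjusted p = 0.00888). Ezr went from 113, 93.7, 111 and 121 CPM to 131, 160, 145 and 151 CPM, also clear of overlap in 4 of 4 mice (log2 fold change 0.42, SE 0.10, adjusted p = 0.0132). Neither passed without mouse 2 (adjusted p of 0.125 and 0.141), and Ezr did not without mouse 4 (0.0759). Actb was just short of the limit, with the values above without and 2567, 2750, 2434 and 2741 CPM with irradiation (log2 fold change 0.20, adjusted p = 0.0511). All 5 junction genes, all 5 crosslinkers and all 5 testable myosin II chains had fold changes above 0, and the highest junction value was that of Vcl at 0.58 (adjusted p = 0.439). Vcl reached the limit on low counts (6.22 CPM in 4 cultures) in the irradiated group alone, and it fell in mouse 1. Without genes that reached the limit in their higher group alone, 29 of 36 members were above 0.

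In VIP-treated cells irradiation changed 6 of 37 members (16.2%), 4 up and 2 down, against 7.78% of all genes (776 of 9976). It shares its non-irradiated VIP cultures with the comparison of VIP without irradiation. Myh9 (chromosome 15, 77760587 to 77842175) was at 110, 109, 91.4 and 93.8 CPM without and at 163, 186, 137 and 167 CPM with irradiation. All irradiated cultures were above all others (log2 fold change 0.68, SE 0.11, adjusted p = 0.000187). Rflnb was at 40.6, 57.5, 44.8 and 44.5 CPM without and at 68.2, 68.7, 68.3 and 72.2 CPM with irradiation (log2 fold change 0.57, SE 0.12, adjusted p = 0.00244). Myh9 and Rflnb kept their calls under all 10 alternatives run.

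Each of the other 4 calls was lost under several alternatives. Capg rose from 6.01, 12.7, 8.31 and 12.2 CPM to 16.5, 15.98, 36.5 and 12.9 CPM (log2 fold change 1.03, SE 0.29, adjusted p = 0.0257), with the value of mouse 3 far above the rest, and without that mouse the log2 fold change was 0.56 (adjusted p = 0.339). It did not pass without mouse 1 (0.0886) or with DESeq2 (0.109) either. Flna (chromosome X, 74223461 to 74249820), the filamin partner of Rflnb, rose from 3.00, 8.95, 6.39 and 4.87 CPM to 12.8, 9.59, 10.003 and 16.2 CPM (log2 fold change 1.07, SE 0.32, adjusted p = 0.0361), and did not pass without mouse 1, 3 or 4 (0.147, 0.0633 and 0.281) or with DESeq2 (0.19). Of the groups compared, Capg and Flna reached the limit on low counts, 6.22 CPM in 4 cultures, in the irradiated one alone, and without genes that reached the limit in their higher group alone 4 of 34 members were called (11.8%), against 7.37% of 9249 genes. Tmsb10 fell from 684, 500, 439 and 456 CPM to 443, 370, 391 and 445 CPM, with overlap between mice but lower in each of 4 (log2 fold change -0.33, SE 0.09, adjusted p = 0.0288), and did not pass without mouse 1, 2 or 3 (0.116, 0.16 and 0.0564) or without the mouse block (0.0597). Cdc42ep1, which binds Cdc42 and shapes filament bundles, fell from 161, 157, 150 and 151 CPM to 132, 119, 127 and 137 CPM with no overlap (log2 fold change -0.27, SE 0.08, adjusted p = 0.0425). It did not pass when any single mouse was left out, with DESeq2 (0.177), with no filter (0.11), without the mouse block (0.0503) or with only the groups compared (0.076).

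**Figure D4:**
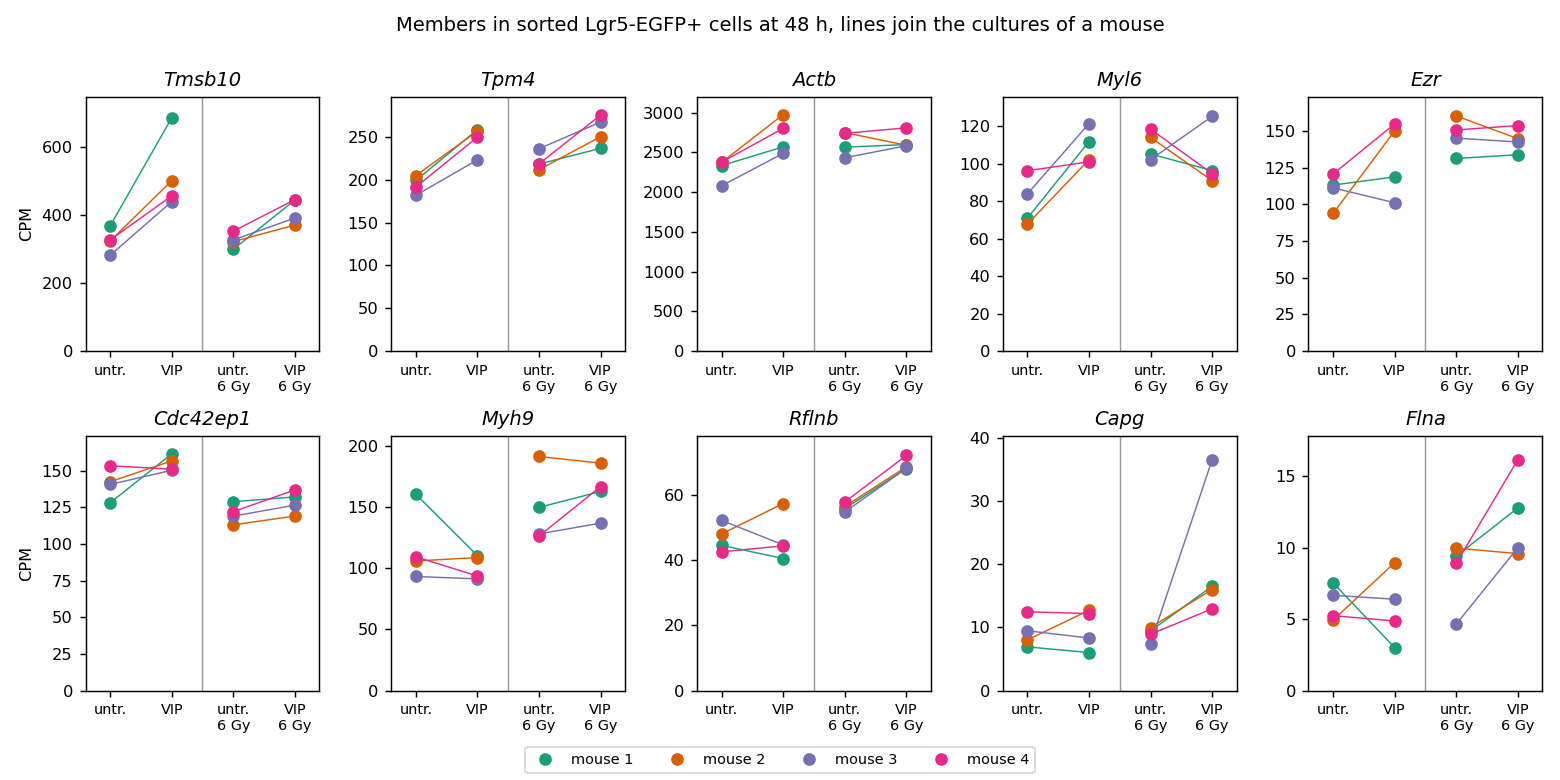
CPM of 10 members in sorted Lgr5-EGFP+ cells at 48 h, untreated or with VIP, without irradiation (left of each grey line) and after 6 Gy (right), where lines join the cultures of 1 mouse. Tmsb10 is higher with VIP in 4 of 4 mice on both sides of the line, and Myl6 in 4 of 4 mice without irradiation but in 1 of 4 after it.

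Whether VIP acted differently after irradiation was tested as an interaction, and 0 of 37 members and 0% of all genes (0 of 9976) passed. An unadjusted p under 0.05 was found for 9 members and 634 of all genes, and DESeq2 called 3 genes and 0 members. Myl6 led, with a VIP fold change of 0.45 on the log2 scale without and -0.15 with irradiation, a difference of -0.59 (SE 0.15, adjusted p = 0.615) that was negative in 4 of 4 mice. For Actb the difference was -0.24 (adjusted p = 0.687), negative in 4 of 4 mice. Arpc3, an Arp2/3 subunit, went the other way with 0.24 (adjusted p = 0.687), at 307, 292, 293 and 275 CPM without and 274, 250, 253 and 270 CPM with VIP in non-irradiated cells, and at 301, 284, 284 and 248 CPM and 316, 284, 302 and 292 CPM in irradiated ones.

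Irradiation also moved the cell type markers of the sorted cells. All 6 Paneth cell markers were called higher with irradiation in untreated and in VIP-treated cells, and their sum was 9889 to 14679 CPM without and 14773 to 27162 CPM with irradiation in untreated cells, and 8393 to 9746 CPM and 14661 to 16789 CPM in VIP-treated ones. Goblet cell markers had 4 and 3 of 6 called higher, enteroendocrine markers 3 and 4 of 4, and of 5 stem cell markers 2 were called lower in each case. The stem cell sum was 3161 to 4179 CPM without and 2236 to 2555 CPM with irradiation in untreated cells, and 4973 to 5486 CPM and 2852 to 3451 CPM with VIP. Vim, the single mesenchymal marker that could be tested, was called higher in both, and the leukocyte markers summed to at most 3.14 CPM. Their part in the values of Myl6, Ezr, Myh9, Rflnb, Capg, Flna, Tmsb10 and Cdc42ep1 was not tested.

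Of the 113 other actin and junction genes tested there, irradiation raised 6 in untreated cells (5.31%) and lowered none, a share near the 4.46% of all genes. They were Gsn (log2 fold change 0.95), the skeletal muscle actin gene Acta1 (0.72), the formin gene Diaph1 (0.87) and the junction genes Ajuba (1.25), Plekha7 (0.80) and Nectin2 (0.33). In VIP-treated cells 8 rose and 1 fell (7.96%), a share near the 7.78% of all genes. Gsn (1.13), Dstn (0.53), Acta1 (0.54), Cnn2 (0.59) and the myosin gene Myo18a (0.71) rose, and of 25 junction genes Ctnnb1 (beta-catenin, 0.66) and the desmosome gene Dsp (0.97) were among 3 that rose while Nectin3 fell by 0.32. Muscle actin and cytoplasmic actin genes are close in sequence, so that the count of Acta1 is uncertain.

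Counted over all comparisons, 16 of the 39 members tested in any (41%) passed in at least 1, against 10.8% of all genes (1399 of 12910). Tpm2, Myl9 and Flna passed only where they reached the limit on low counts in their higher group alone. The members are also abundant and were chosen with earlier results known, so that the 41% tests nothing. Among the members that passed in none were all 5 adherens junction genes and all 4 Arp2/3 subunits. The share of all UMIs that fell to the members was also taken by culture. In whole organoids it was 1.37% ± 0.071 (SD, n = 3) without VIP, from 1.30% to 1.44%, and 1.70% ± 0.071 (SD, n = 4) with it, from 1.63% to 1.78%. In sorted cells at 72 h it was 1.33% ± 0.066 without and 1.51% ± 0.106 with VIP (SD, n = 4 each), where the ranges of 1.26% to 1.41% and 1.40% to 1.65% met. At 48 h it was 1.42% ± 0.034 without and 1.53% ± 0.035 with VIP in non-irradiated cells, and 1.48% ± 0.018 and 1.53% ± 0.038 in irradiated ones (SD, n = 4 each). The share is a sum over genes of different abundance, and Actb alone gave 26.2% of it in the untreated whole organoids of mouse 1.

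**Figure D5:**
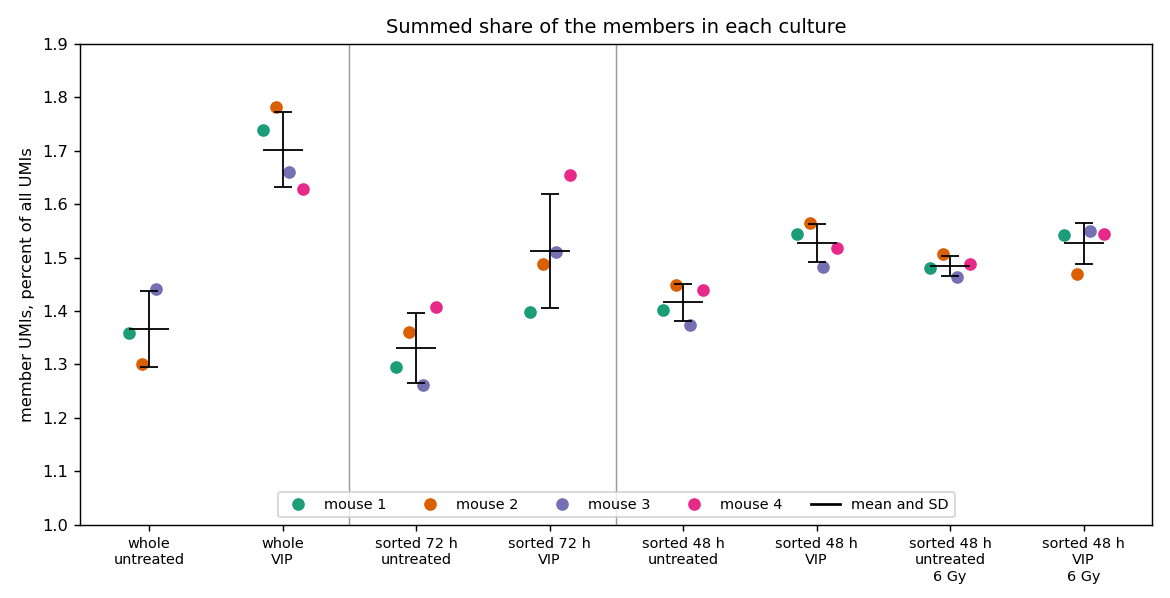
Share of all UMIs (percent, axis from 1.0 to 1.9) that fell to the 40 members in each culture, with 1 colour per mouse and the mean and SD of each group as bars. The 4 VIP cultures of whole organoids lie at 1.63% to 1.78%, above the 3 untreated ones at 1.30% to 1.44%, and the groups after irradiation lie close together.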

How the data were processed

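RNA of whole jejunal organoids and of sorted Lgr5-EGFP+ cells was sequenced from the 3′ end in 37 libraries. Per the study's methods the authors aligned reads to GRCm38 with GENCODE M25 annotation and made UMI tables with the Drop-seq pipeline; the deposited tables hold whole UMI counts for each gene in each library, not normalized. A 3′ count does not depend on transcript length but rests on the annotated 3′ end, and the strand setting is not given in the sources used here.

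Libraries of the same culture were added up. The tests were run with edgeR 4.0.16 and limma 3.58.1 under R 4.3.3 (TMM, filterByExpr by group, quasi-likelihood fit, a term for the mouse as in the study's designs, Benjamini-Hochberg adjustment over all genes tested, threshold 0.05). SE is the log2 fold change divided by the root of the F statistic. Within-mouse directions used log2 CPM with a prior count of 2. The procedure was tested on simulated data. DESeq2 1.42.0, other scalings, no filter, no mouse block and omission of mice or libraries were alternatives. TMM factors were 0.942 to 1.03 in whole organoids, 0.932 to 1.05 in sorted cells at 72 h and 0.969 to 1.02 in the irradiation experiment.

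By their labels, same-numbered cultures of an experiment come from the same mouse. To check the pairing, each culture's distance from its group mean was correlated over genes between cultures of a mouse, which gave 0.268 to 0.634 in whole organoids, 0.0292 to 0.212 in sorted cells at 72 h and -0.0707 to 0.158 in the irradiation experiment, and -0.545 to 0.334, -0.144 to 0.15 and -0.204 to 0.204 between mice. In the irradiation experiment the values within mice lay inside the range between mice, and in the other experiments the ranges overlapped. For the sorted cells the check thus does not show the pairing, which rests there on the labels.

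The 40 members, the wider list and the tests were chosen with earlier results of these data known. A member was described in full if called in any comparison or among the 3 smallest p of one, which gave 19. At most 3 called genes per wider list were named for each comparison. A gene that this rule picked is not reported here. Positions are those of GENCODE M21 on GRCm38, and promoter windows those of RefSeq on GRCm38.p6.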

Additional observations from a re-analysis of the deposited data

Results flagged for a closer look

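Among 133 groups of 4 cultures of the members described in full, 11 (8.27%) held a culture whose gap to its nearest neighbour took up nearly the whole range of the group, where chance gives about 1 in 20. In whole organoids with VIP, Rhoc stood at 196.4 CPM in mouse 2 against 86.4 to 97.3 CPM in the others. In sorted cells at 72 h without VIP, Myl9 was low in mouse 2 (1.157 CPM, the others 3.18 to 3.38 CPM), a matter of very few UMIs.

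At 48 h, mouse 4 was high among the untreated irradiated cells in Vil1 (154.2 CPM, the others 99.5 to 107 CPM) and in Jup (57.92 CPM, the others 45.6 to 46.5 CPM). Among untreated non-irradiated cells, mouse 3 was low in Actb (2081 CPM, the others 2335 to 2379 CPM) and mouse 2 held 0 CPM of Tpm2 (the others 0.556 to 0.656 CPM). Among irradiated VIP-treated cells, mouse 4 was high in Actb (2810 CPM, the others 2584 to 2600 CPM) and Rflnb (72.2 CPM, the others 68.2 to 68.7 CPM), and mouse 3 was high in Capg (36.48 CPM, the others 12.9 to 16.5 CPM) and Myl6 (125.3 CPM, the others 91.1 to 96.4 CPM). Among non-irradiated VIP-treated cells, mouse 1 was high in Actn4 (103.6 CPM, the others 85.1 to 87.7 CPM).

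The VIP effect on Rflnb differed between sorted cells and whole organoids in the main fit, with a log2 interaction of -1.37 (edgeR, adjusted p = 0.0144). The call was kept in 7 of 12 alternatives, and the experiments also differ in mouse strain and depth. The VIP effect on Arpc3 was negative in 4 of 4 mice without irradiation (log2 fold change -0.16) and positive in 4 of 4 after it (0.07), and the interaction of 0.24 did not pass (adjusted p = 0.687).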

How the results depend on the processing

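Of 384 recomputed fold changes of the named members, 302 stayed on their side of the threshold, 72 lost the call, 10 gained one and 0 changed sign. Some of the 384 belong to members not called in that comparison, which had no call to lose, so the calls were less stable than these counts look. In whole organoids 12 members were called. DESeq2 called 7, the first technical library of each culture alone 19, and the counts without single mice ran from 5 to 25. For VIP-treated mouse 3, 24 members were called without technical replicate 2 and 0 without technical replicate 1, the latter chosen after seeing the data. Technical replicate 2 stood out on the members' own values, so that the 24 is no separate check either. For VIP at 48 h without irradiation (2 called) it was 4 by library size alone, 4 with no filter, 4 with only the groups compared and 1 to 2 without single mice. For VIP in irradiated cells (0 called) it was 2 with no filter and 1 with only the groups compared. For irradiation of untreated cells (2 called) it was 4 with DESeq2 and 0 to 7 without single mice, and for irradiation of VIP-treated cells (6 called) 3 with DESeq2 and 2 to 4 without single mice. The interaction of VIP with the compartment (1 called) gave 0 to 1 without the mice of single numbers and 0 without technical replicate 1 of VIP-treated mouse 3. These counts of members stand without the calls among all genes under the same setting, so they say nothing on the members in particular. The cause of these differences was not tested.

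Without the mouse block, 2 members were called in whole organoids and 0 for the interaction with the compartment, and the other counts stayed within 1.5 times. VIP in sorted cells at 72 h and the interaction of VIP with irradiation gave 0 members under every alternative. Sorted cells at 72 h had the fewest UMIs, so that small changes could be missed there.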
